A study of Mus musculus with 8 samples.

Results

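Cadherins and protocadherins are cell surface proteins, and their genes were read from arrays of ventral and dorsal aortic tissue of the mouse embryo. Members were taken by gene symbol: Cdh followed by a number, Pcdh followed by a number (with or without x), and Pcdh followed by a, b or g. This gave 90 of the 24675 named genes in the table: 18 classical cadherins, 5 other cadherins, 12 single protocadherins and 55 clustered protocadherins (11 alpha, 22 beta and 22 gamma). The tissues came from C57Bl/6 embryos at embryonic day 12.5 and were cut from frozen sections by laser microdissection, the ventral piece from under the aorta and the dorsal piece from the space between aortic roof and notochord. Both pieces came from the same embryos, with 4 arrays a tissue (Affymetrix mouse Gene 2.0 ST), numbered as biological replicates 1 to 4. Whether a number stands for 1 embryo or a pool, or for the same embryos in both tissues, is not given in the sources used here. The main tests rest on how the difference between same-numbered arrays varied from number to number, whatever the source of that spread. No allele, transgene or treatment is given for either tissue, and each piece is a mixture of cell types.

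Classical cadherins bind the same or a similar cadherin on a neighbouring cell in the presence of calcium, and their tails hold catenins that join them to actin. Type I members such as E-cadherin and N-cadherin carry strong adhesion, while type II members mark mesenchyme, endothelium and groups of neurons. Protocadherins are a larger branch of the same superfamily, best known from the nervous system. In the alpha and gamma clusters each first exon has its own promoter and is joined to exons that the whole cluster shares, and single neurons use only a few of these promoters. Which exons the probes of each row lie in was not analysed here, so alpha and gamma rows could share signal from the common exons and are uncertain as single genes. No 2 of the 90 rows held the same values.

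Values are log2 RMA intensities, and every difference is ventral minus dorsal on that scale. Genes were tested if they exceeded the array's median (3.59 to 3.65) on at least 4 of the 8 arrays, which 12416 genes did, 50.3% of all named genes. Of the 90 members, 43 were tested (47.8%): 10 of 18 classical cadherins, 2 of 5 other cadherins, 8 of 12 single protocadherins, and 3 of 11 alpha, 3 of 22 beta and 17 of 22 gamma protocadherins. None of the 43 owed its place to 1 tissue alone, since each exceeded the median on at least 1 array of either tissue. At the other end, 32 members lay under the median on all 8 arrays, and 26 lay above it on all 8. Probes differ in brightness, so values of different genes are not set against each other here.

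Across tested genes, arrays correlated at r = 0.907 to 0.948 within ventral tissue, 0.907 to 0.957 within dorsal tissue and 0.907 to 0.936 between them (across genes, which are not independent replicates). Some arrays stood apart in markers of other cells, given as the mean log2 value of each list. Neuron markers (8 genes) ranged from 4.39 to 6.35 in ventral tissue, highest on replicates 1 and 3, and from 4.47 to 7.13 in dorsal tissue, highest on replicate 1. Liver markers (5 genes) were at 6.17 on ventral replicate 4 and at most 3.21 on the other ventral arrays, against 7.80 on dorsal replicate 4 and at most 3.28 on the other dorsal arrays. Sclerotome and cartilage markers (8 genes) ranged from 4.38 to 4.72 in ventral tissue, against 5.61 to 6.88 in dorsal tissue, which sets the tissues apart as their labels say. Macrophage markers (8 genes) separated the tissues the other way, at 5.19 to 5.53 in ventral and 4.60 to 5.01 in dorsal tissue, with 8 of 8 tested above 0. Smooth muscle markers (7 of 7 tested above 0, median difference 0.63) ranged from 5.26 to 6.68 in ventral and from 4.76 to 5.38 in dorsal tissue, and mesothelium markers (3 of 5 above 0, median 0.84) from 4.41 to 5.29 in ventral and from 3.57 to 4.97 in dorsal tissue.

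No cadherin or protocadherin passed the test. In limma, blocked by replicate number, 0 of 43 members had an adjusted p under 0.05, as had 0 of all 12416 genes (background 0%), and the smallest adjusted p among members was 0.257. An unadjusted p under 0.05 was reached by 4 members of 43 (9.3%), against 8.26% of all genes tested, so the members' share lies near the background. In Cdh11, Cdh2 and Pcdhgb5 ventral tissue had the higher mean (background 4.08%), and in Pcdhgb1 the lower one (background 4.18%). Of the 43, 28 had a difference above 0 and 15 below 0, with a median of 0.10, against 49.2% above 0 and a median of -0.0039 over all genes tested.

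**Figure D1:**
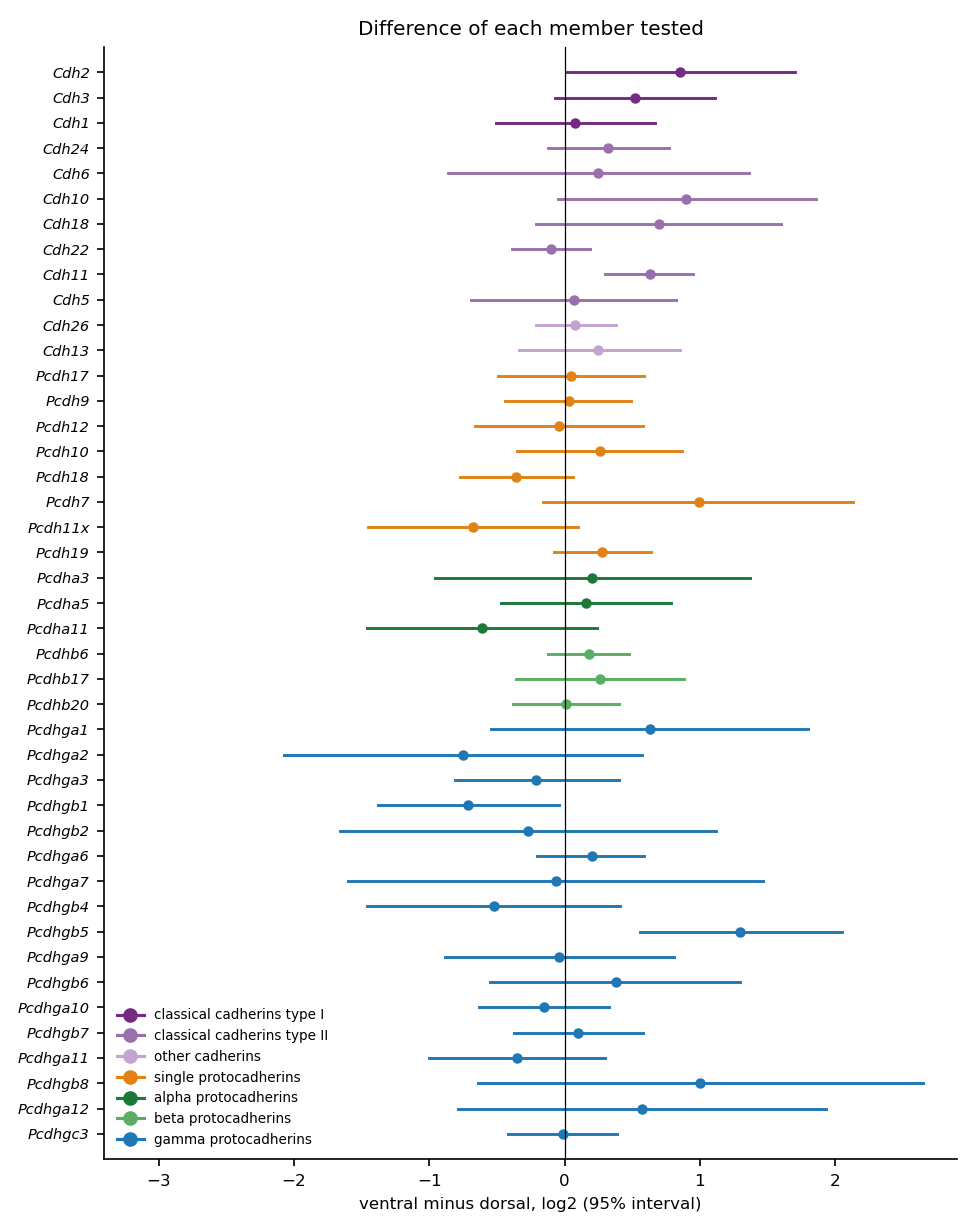
Ventral minus dorsal difference (log2, points) with its unadjusted 95% interval (lines) for the 43 members tested, coloured by family, from limma blocked by replicate number. The intervals of Cdh2, Cdh11 and Pcdhgb5 lie above 0 and that of Pcdhgb1 below 0, and all others include 0.

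Among the classical cadherins, 9 of the 10 tested had a difference above 0 (49.2% of all genes tested), with a median of 0.42. In limma 0 passed the test, and 2 of the 10 had an unadjusted p under 0.05 (8.26% of all genes tested). The median difference was 0.20, 0.23, 0.97 and 0.20 in replicate numbers 1 to 4, so number 3 had the widest gap. Without number 3 the median was 0.25. Macrophage, smooth muscle and mesothelium markers also had medians above 0, and their part was not tested.

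Cdh11, a cadherin of mesenchyme and of bone-forming cells, had the smallest p of all members in the blocked fit. Its values were 9.10, 9.94, 9.63 and 8.93 in ventral replicates 1 to 4, against 8.85, 9.25, 8.91 and 8.08 in dorsal replicates 1 to 4. The tissues overlap, but within each replicate number the ventral array was the higher one, by 0.25 to 0.85. The difference was 0.63 (SE 0.14, 95% interval 0.30 to 0.95), or 1.54-fold, with an unadjusted p of 0.00252 and an adjusted p of 0.257 in limma over all genes tested. With no replicate block the unadjusted p of Cdh11 was 0.0508 (adjusted p 0.626 in limma), and Pcdhgb5 then had the smallest p, 0.00213. A difference above 0 in all 4 numbers was found for 5 of 43 members (Cdh11, Cdh24, Pcdh19, Pcdhga6 and Pcdhgb5) and for 7.93% of all genes tested, and a difference below 0 in all 4 for 0 members and 8.46% of all genes.

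Cdh2 encodes N-cadherin of neural, muscle and mesenchymal cells. It stood at 6.29, 6.12, 6.97 and 7.03 in ventral replicates 1 to 4, against 6.61, 5.57, 4.94 and 5.87 in dorsal replicates 1 to 4. The ventral arrays were higher in 3 of 4 numbers, and dorsal replicate 1, the array with the highest neuron and spinal cord marker levels, was also the highest dorsal array for Cdh2. In ventral tissue neuron markers were highest on replicates 1 and 3 (6.35 and 6.22), but Cdh2 on replicates 4 and 3. Of the spinal cord list, Sox2 (7.83) and Zic1 (6.72) were highest on dorsal replicate 1, while Sox3 (3.39) was lowest there. The part of neurons and spinal cord cells in the Cdh2 result was not tested. The difference was 0.85 (SE 0.36, limma unadjusted p = 0.0481, adjusted p = 0.599), and it was 1.24 without replicate number 1 and 0.46 without number 3.

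Cdh3, the P-cadherin of placenta and epithelia, had 5.76, 6.30, 6.83 and 6.11 in ventral replicates 1 to 4 and 5.77, 5.63, 5.55 and 5.98 in dorsal replicates 1 to 4. Its ventral spread (SD 0.45) was wider than its dorsal spread (SD 0.19), and the lowest ventral array lay inside the dorsal range. The difference was 0.52 (SE 0.25, limma adjusted p = 0.657).

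Cdh1, the E-cadherin of epithelial cells, averaged 4.83 ± 0.26 in ventral tissue and 4.75 ± 0.69 in dorsal tissue (SD, n = 4 each), a difference of 0.08 (SE 0.25, 95% interval -0.51 to 0.67). Its highest value was 5.62 on dorsal replicate 4 and its lowest 4.06 on dorsal replicate 1. On the same arrays the mean of the epithelial markers (8 genes) was at its highest, 5.19, and its lowest, 3.77. Single markers did not all follow that mean. On dorsal replicate 4, Krt18 was at 6.82, its highest value, and Epcam at 3.85, against 3.86 to 4.25 in ventral tissue. Liver markers were also highest on dorsal replicate 4 (7.80), and in ventral tissue both they (6.17) and Cdh1 (5.16) were highest on replicate 4. The remaining arrays had liver markers at 3.12 to 3.28 and Cdh1 at 4.06 to 4.96. The part of epithelial or liver cells in the spread of Cdh1 was not tested. Cdh4 (R-cadherin, of brain and retina) and Cdh15 (M-cadherin, of muscle precursors) did not enter the test. Cdh4 had 3.08 to 3.51 in ventral tissue and 3.41 to 4.11 in dorsal tissue and exceeded the median on 2 dorsal arrays only, and Cdh15 lay under it on all 8 (3.11 to 3.41 ventral, 3.23 to 3.57 dorsal).

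Cdh5, the VE-cadherin of endothelial junctions, averaged 7.02 ± 0.27 in ventral and 6.96 ± 0.80 in dorsal tissue (SD, n = 4 each). Its values were 7.20, 6.75, 7.30 and 6.85 in ventral replicates 1 to 4, against 6.70, 7.94, 7.15 and 6.04 in dorsal replicates 1 to 4. The dorsal arrays held both the highest and the lowest value. The mean of the endothelial markers (8 genes without Cdh5) was likewise highest on dorsal replicate 2 (4.98) and lowest on dorsal replicate 4 (3.87), with 4.54 to 4.83 in ventral tissue. Not every marker followed that mean. Tek was highest on dorsal replicate 2 (5.04), but Kdr on ventral replicate 1 (6.06) and Pecam1 on ventral replicate 4 (5.95). Of the 6 endothelial markers tested, 5 had a difference above 0 and 1 below. In such bulk tissue, fewer cells of a type and less RNA per cell cannot be told apart. The difference of Cdh5 was 0.07 (SE 0.32, 95% interval -0.69 to 0.82), so differences anywhere between these bounds could not be told from 0.

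Cdh6, Cdh9, Cdh10, Cdh12 and Cdh18 are type II cadherins of kidney and nervous tissue that follow one another on mouse chromosome 15 in the RefSeq gene table, with 1 other protein-coding gene between Cdh12 and Cdh18. Of these 5, Cdh6, Cdh10 and Cdh18 were tested, and all 3 had a wide ventral and a narrow dorsal spread. Their promoters and that of the single protocadherin Pcdh7 are shown because, of the cadherins and single protocadherins tested, these 4 varied most between ventral arrays. The windows run from 250 bases before to 50 bases after the start, on the gene's strand, 5′ to 3′, from RefSeq (GRCm38.p6): chr15:13173626-13173925 (minus strand) for Cdh6, chr15:18820079-18820378 (plus strand) for Cdh10, chr15:23036213-23036512 (plus strand) for Cdh18 and chr5:57717831-57718130 (plus strand) for Pcdh7. Capitals mark CANNTG, the general E-box letters, a pattern that reads the same on both strands. The letters at NN were not scored, so a match does not say which factor could bind.
Cdh6: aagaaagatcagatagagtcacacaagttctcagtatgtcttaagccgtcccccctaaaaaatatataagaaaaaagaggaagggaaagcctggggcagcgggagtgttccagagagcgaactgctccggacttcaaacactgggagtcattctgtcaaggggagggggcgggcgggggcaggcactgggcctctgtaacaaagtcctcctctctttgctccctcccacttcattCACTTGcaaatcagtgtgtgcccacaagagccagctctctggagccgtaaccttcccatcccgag
Cdh10: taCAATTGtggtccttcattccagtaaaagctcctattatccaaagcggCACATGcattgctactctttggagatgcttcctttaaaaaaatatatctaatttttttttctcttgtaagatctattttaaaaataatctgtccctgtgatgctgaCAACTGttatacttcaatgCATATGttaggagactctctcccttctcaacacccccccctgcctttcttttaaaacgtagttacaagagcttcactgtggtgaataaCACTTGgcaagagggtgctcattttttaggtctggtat
Cdh18: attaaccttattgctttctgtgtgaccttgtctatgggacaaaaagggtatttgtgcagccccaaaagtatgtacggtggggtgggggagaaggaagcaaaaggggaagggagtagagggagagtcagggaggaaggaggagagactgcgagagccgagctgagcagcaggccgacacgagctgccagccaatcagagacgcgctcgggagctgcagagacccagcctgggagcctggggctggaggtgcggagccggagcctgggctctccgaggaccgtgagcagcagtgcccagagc
Pcdh7: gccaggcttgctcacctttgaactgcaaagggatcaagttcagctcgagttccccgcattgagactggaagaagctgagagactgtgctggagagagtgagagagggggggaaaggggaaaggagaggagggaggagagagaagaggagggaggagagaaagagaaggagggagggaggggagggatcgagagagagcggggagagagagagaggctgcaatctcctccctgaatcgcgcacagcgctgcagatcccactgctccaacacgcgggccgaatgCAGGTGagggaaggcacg
The window of Cdh10 holds 5 such matches and 2 CG pairs, that of Cdh6 holds 1 match and 8 CG pairs, that of Cdh18 holds 0 matches and 12 CG pairs, and that of Pcdh7 holds 1 match and 11 CG pairs. Over all 32851 windows in the RefSeq table, 72.3% hold CANNTG at least once, 2.1% hold it 5 times or more and 23.3% have 2 or fewer CG pairs. Of the 90 members, 22 have a window in that table. A match describes the letters and not a bound site.

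Cdh6, first described in kidney and also a marker of neural crest, had 7.60, 4.79, 7.51 and 6.31 in ventral replicates 1 to 4, against 6.41, 6.45, 6.29 and 6.05 in dorsal replicates 1 to 4. Ventral tissue thus spanned 2 arrays above and 1 array below the whole dorsal range. The SD was 1.31 in ventral and 0.18 in dorsal tissue, and the difference was 0.25 (SE 0.47, limma adjusted p = 0.938). The order of the ventral arrays, 1, 3, 4 and 2 from high to low, was also that of the neuron markers (6.35, 6.22, 4.97 and 4.39). The mean of the glia and Schwann precursor markers (4 genes) had that order too (5.28, 5.19, 4.68 and 3.95). In that list Fabp7 varied most, from 4.43 to 8.22 on the ventral arrays, against 3.63 to 4.08 for Erbb3 and 4.01 to 4.95 for Foxd3. Dorsal replicate 1, with the highest level of both lists (7.13 and 5.99), did not stand out for Cdh6. On that array Fabp7 was at 11.18, Erbb3 at 3.68 and Foxd3 at 4.99. The part of neural cells was not tested.

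Cdh10, a cadherin of the developing brain, had 4.81, 3.48, 5.20 and 5.34 in ventral replicates 1 to 4, against 3.93, 4.18, 3.66 and 3.44 in dorsal replicates 1 to 4. Ventral replicate 2, low for Cdh6 as well, was the only ventral array inside the dorsal range. The difference was 0.90 (SE 0.40, 95% interval -0.05 to 1.86, limma adjusted p = 0.623), and without replicate number 2 it was 1.44. Cdh18 had 3.87, 5.07, 5.94 and 3.94 in ventral replicates 1 to 4, against 4.27, 4.14, 3.83 and 3.79 in dorsal replicates 1 to 4. For this brain cadherin 2 ventral arrays (2 and 3) lay above all dorsal ones, and the difference was 0.70 (SE 0.38, limma adjusted p = 0.718). The neighbours Cdh9 and Cdh12 lay under the median on all 8 arrays.

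Of the other type II members tested, Cdh24 averaged 5.10 ± 0.33 in ventral tissue and 4.78 ± 0.15 in dorsal tissue (SD, n = 4 each), higher in 4 of 4 numbers by 0.08 to 0.73 (limma adjusted p = 0.736). Cdh22, a cadherin of brain, stayed near the array medians, at 3.51 to 3.67 in ventral and 3.54 to 3.80 in dorsal tissue, and was the only one of the 10 classical cadherins tested with a difference below 0 (-0.10, SE 0.12). The other type II members not tested were Cdh7, Cdh8, Cdh19 and Cdh20, with ventral means of 2.58 to 3.36 and dorsal means of 2.63 to 3.38. Cdh19, a marker of Schwann cell precursors, had 2.32 to 2.79 in ventral and 2.30 to 3.21 in dorsal tissue. Of these 4, Cdh7 exceeded the median on 1 dorsal array and Cdh8 on 1 ventral array, and Cdh19 and Cdh20 on none.

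**Figure D2:**
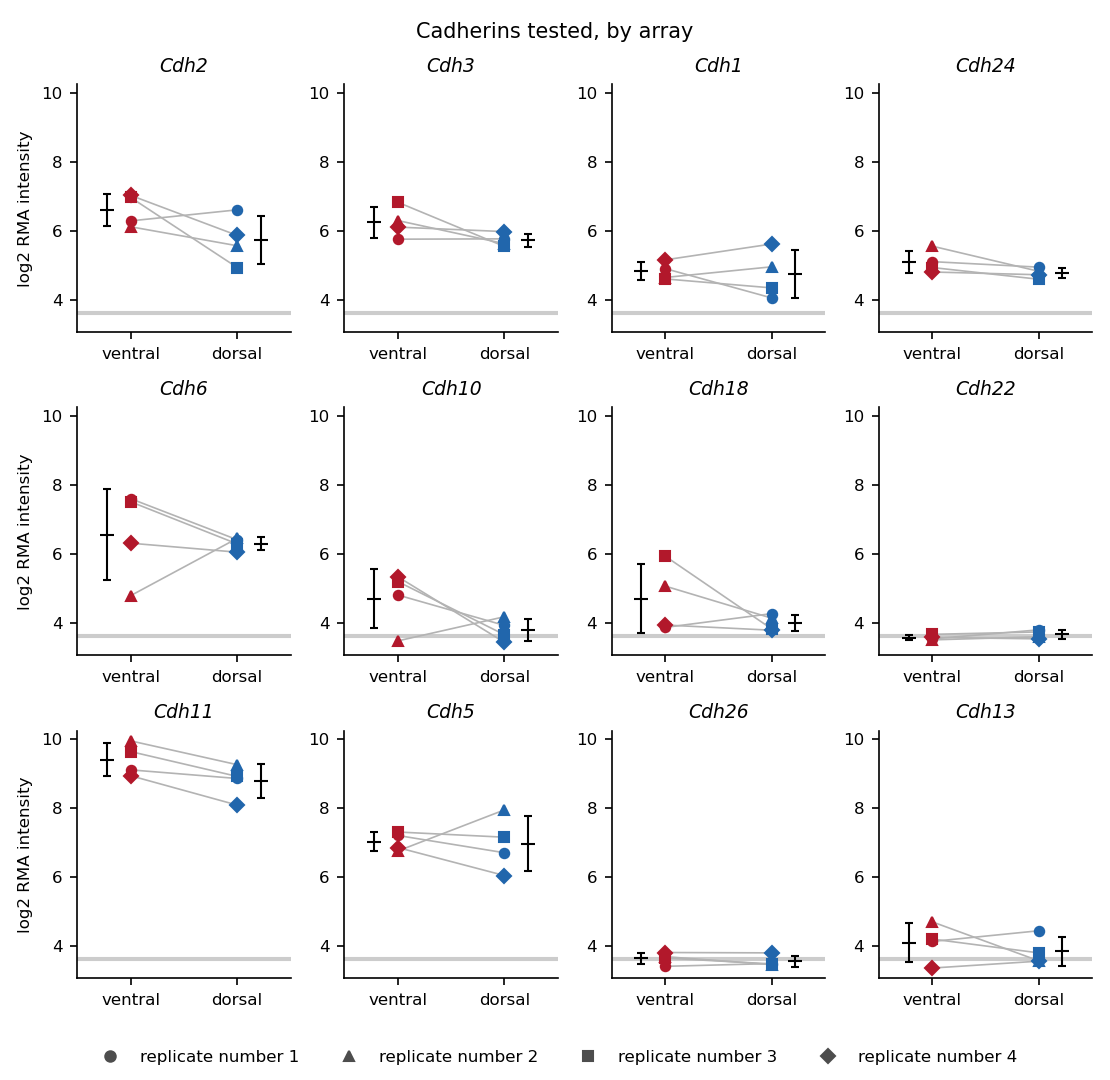
Log2 RMA intensity of the 12 cadherins tested (10 classical, then Cdh26 and Cdh13) in ventral (red) and dorsal (blue) tissue, 1 point per array, with lines joining arrays of the same replicate number. Black bars are means ± SD (n = 4), and the grey band is the range of the array medians (3.59 to 3.65). The tissues overlap in every panel, and Cdh11 and Cdh24 are higher in ventral tissue in 4 of 4 numbers.

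Cadherins outside the classical types were mostly at background. Cdh13, the T-cadherin that is held to the membrane by a lipid anchor, averaged 4.10 ± 0.55 in ventral and 3.84 ± 0.41 in dorsal tissue (SD, n = 4 each), a difference of 0.25 (SE 0.25, limma adjusted p = 0.853). Cdh26 averaged 3.64 ± 0.17 in ventral and 3.56 ± 0.16 in dorsal tissue (SD, n = 4 each). Cdh16 (kidney tubule), Cdh17 (liver and intestine) and Cdh23 (the tip links of hair cells) lay under the median on all 8 arrays, between 2.33 and 2.82 in ventral and between 2.35 and 2.99 in dorsal tissue. Of the 5 nephric epithelium markers in the table, 1 was tested, Gata3, which sympathetic neurons also express.

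The single protocadherins went both ways, with 5 of 8 tested above 0 and 3 below, and a median difference of 0.04. Their smallest unadjusted p was 0.0777. Pcdh7 (BH-protocadherin, of brain and heart) had 5.80, 7.44, 7.69 and 7.23 in ventral replicates 1 to 4, against 6.49, 5.11, 5.77 and 6.86 in dorsal replicates 1 to 4. Replicates 2 to 4 of ventral tissue lay above all dorsal arrays and replicate 1 lay among them, and the difference was 0.99 (SE 0.48, 95% interval -0.16 to 2.13, limma adjusted p = 0.668). Without number 1 it was 1.54 and without number 2 it was 0.53. Ventral replicate 1 was also the ventral array with the lowest level of smooth muscle markers (5.26, against 5.85 to 6.68 on the other ventral arrays). Other arrays did not follow that order. Ventral replicate 3, next lowest for these markers in ventral tissue (5.85), had the highest Pcdh7 value (7.69). Dorsal replicate 1 had a lower marker level (4.91) than ventral replicate 1 and a higher Pcdh7 value (6.49). The part of smooth muscle cells was not tested.

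Pcdh11x, an X-linked protocadherin of brain, was on the dorsal side. Its values were 3.42, 3.82, 3.75 and 4.21 in ventral replicates 1 to 4, against 4.88, 5.09, 4.29 and 3.65 in dorsal replicates 1 to 4. Only dorsal replicate 4 lay in the ventral range, and it was the only number in which the ventral array was the higher one. The difference was -0.68 (SE 0.33, 95% interval -1.45 to 0.10, limma adjusted p = 0.658), and it was -1.09 without number 4. Pcdh18, a protocadherin of embryonic mesenchyme, had 7.81, 8.80, 8.29 and 7.72 in ventral replicates 1 to 4, against 8.64, 8.74, 8.79 and 7.87 in dorsal replicates 1 to 4. The tissues overlap, dorsal replicate 4 stood below the other dorsal arrays, and the difference was -0.36 (SE 0.18, limma adjusted p = 0.671).

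Pcdh19, an X-linked partner of N-cadherin in the nervous system, had 4.95, 3.81, 4.57 and 3.78 in ventral replicates 1 to 4, against 4.68, 3.65, 4.02 and 3.66 in dorsal replicates 1 to 4. Its arrays moved together by number, with a residual SD of 0.14, and ventral arrays were higher in 4 of 4 numbers by 0.13 to 0.55 (difference 0.28, SE 0.15, limma adjusted p = 0.718). Pcdh10, of neurons and of paraxial mesoderm, was also highest on replicates 1 and 3 of ventral tissue (5.51 and 5.07) and on replicate 1 of dorsal tissue (4.98). These are the arrays with the highest neuron markers, and their part was not tested. The difference of Pcdh10 was 0.26 (SE 0.26, limma adjusted p = 0.851).

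The endothelial Pcdh12 averaged 3.73 ± 0.43 in ventral and 3.78 ± 0.55 in dorsal tissue (SD, n = 4 each). Pcdh9 had 3.73 ± 0.23 in ventral and 3.70 ± 0.50 in dorsal tissue, and Pcdh17 had 4.28 ± 0.40 in ventral and 4.22 ± 0.35 in dorsal tissue (SD, n = 4 each). Differences of these 3 neural or endothelial genes lay between -0.04 and 0.05, with 95% intervals of -0.66 to 0.58, -0.44 to 0.49 and -0.49 to 0.59. Pcdh1, an epithelial protocadherin, exceeded the median on 3 arrays and was not tested (3.49 to 4.57 ventral, 3.44 to 3.77 dorsal). Pcdh8, known as paraxial protocadherin, Pcdh15, the partner of Cdh23 in tip links, and Pcdh20 lay under it on all 8.

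**Figure D3:**
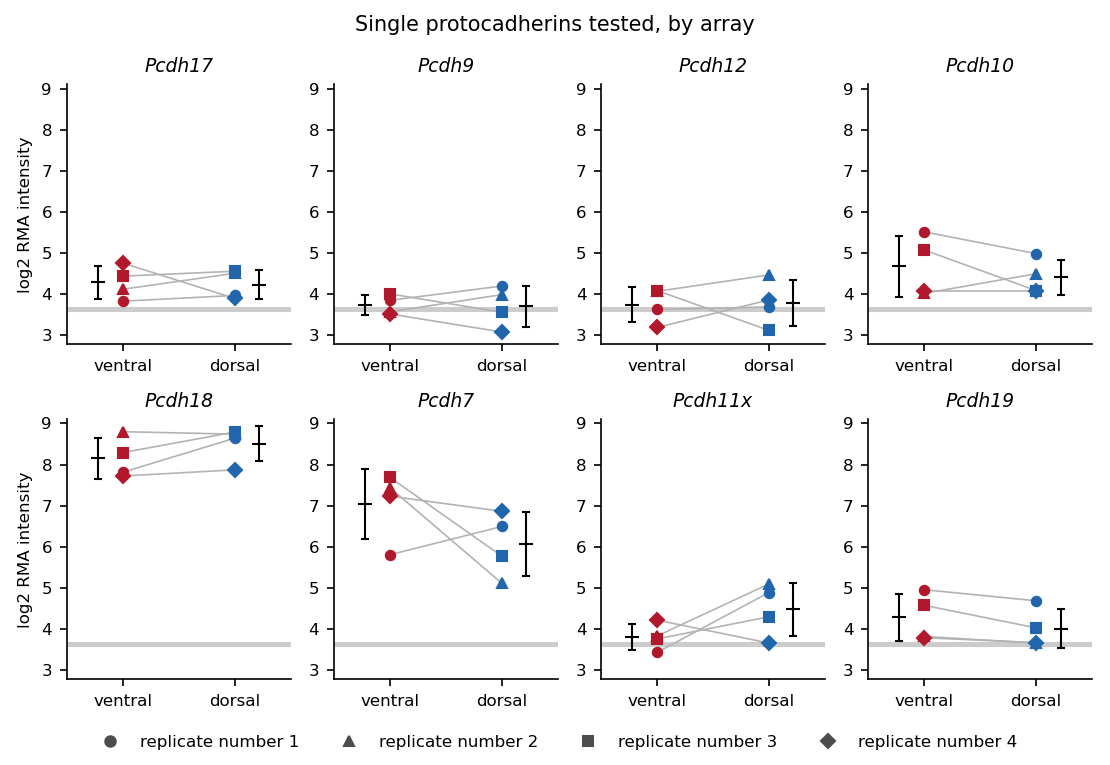
Log2 RMA intensity of the 8 single protocadherins tested, drawn as for the cadherins, with lines joining arrays of the same replicate number, bars for mean ± SD (n = 4) and the array medians in grey. Pcdh7 is higher in ventral tissue and Pcdh11x lower in 3 of 4 numbers each, and Pcdh19 is higher in 4 of 4.

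Most alpha and beta protocadherins lay at background. Of 11 alpha rows 6, and of 22 beta rows 14, were under the median on all 8 arrays. The alpha genes tested varied between arrays without a shared direction. Pcdha3 had 3.32, 5.50, 3.11 and 4.75 in ventral replicates 1 to 4, against 4.41, 3.72, 4.07 and 3.67 in dorsal replicates 1 to 4. Its dorsal values lay inside the ventral range, with a difference of 0.20 (SE 0.49, limma adjusted p = 0.955). Pcdha11 had 2.72 to 3.78 in ventral tissue and 3.43 to 4.82 in dorsal tissue, and its difference of -0.61 (SE 0.36) was -0.11 without replicate number 1. Pcdha5 had 2.83 to 4.86 in ventral and 3.49 to 4.54 in dorsal tissue (difference 0.16, SE 0.27).

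The 3 beta genes tested had differences of 0.01 to 0.26 and adjusted p values of 0.78 to 0.996 in limma. Pcdhb20 averaged 4.03 ± 0.28 in ventral and 4.02 ± 0.05 in dorsal tissue, and Pcdhb17 4.43 ± 0.42 in ventral and 4.17 ± 0.27 in dorsal tissue (SD, n = 4 each). Pcdhb6 averaged 3.69 ± 0.23 in ventral and 3.51 ± 0.34 in dorsal tissue (SD, n = 4 each), close to the medians. Among rows under the filter, Pcdhb5 was singled out after its values were seen, because its tissues do not overlap: 2.96, 3.03, 3.23 and 3.05 in ventral replicates 1 to 4, against 2.36, 2.63, 2.84 and 2.09 in dorsal replicates 1 to 4. All 8 values lie under the medians, where background limits what a difference shows, and no test is given.

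The gamma cluster was the clustered group measured above the median most often, with 17 of 22 rows tested. It showed no common shift: 7 had a difference above 0 and 10 below, with a median of -0.04, and the mean over all 22 rows was 4.93 ± 0.10 in ventral and 4.93 ± 0.19 in dorsal tissue (SD over arrays, n = 4 each). Pcdhgb5 was the member with the widest difference. It had 7.11, 6.29, 8.05 and 7.05 in ventral replicates 1 to 4, against 5.91, 6.00, 5.70 and 5.67 in dorsal replicates 1 to 4. Every ventral array lay above every dorsal array, as for 1 of 43 members and 2.01% of all genes tested, while the reverse held for 0 members and 2.38% of all genes. The dorsal arrays were close together (SD 0.16) and the ventral ones spread (SD 0.72). The difference was 1.30 (SE 0.32, 95% interval 0.56 to 2.05), or 2.47-fold, with an unadjusted p of 0.0042 and an adjusted p of 0.303 in limma.

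Pcdhgb1 pointed the other way. It had 7.79, 7.58, 8.10 and 7.95 in ventral replicates 1 to 4, against 8.04, 8.93, 7.94 and 9.34 in dorsal replicates 1 to 4. Dorsal replicates 2 and 4 were high and the other dorsal arrays lay near the ventral ones, for a difference of -0.71 (SE 0.28, 95% interval -1.38 to -0.04, limma adjusted p = 0.578). Pcdhgb8 had 6.29, 5.55, 4.01 and 6.86 in ventral replicates 1 to 4, against 5.46, 5.10, 5.12 and 3.03 in dorsal replicates 1 to 4. The difference of 1.00 (SE 0.69, limma adjusted p = 0.78) rested on number 4, without which it was 0.06. Pcdhga2 had 3.38 to 4.15 in ventral tissue and 3.01 to 6.26 in dorsal tissue, and its difference of -0.75 was -0.04 without number 1. Pcdhga9 (6.86 ± 0.34 ventral, 6.89 ± 0.74 dorsal) and Pcdhga11 (6.61 ± 0.45 ventral, 6.96 ± 0.63 dorsal, SD, n = 4 each) differed by less than their spread.

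**Figure D4:**
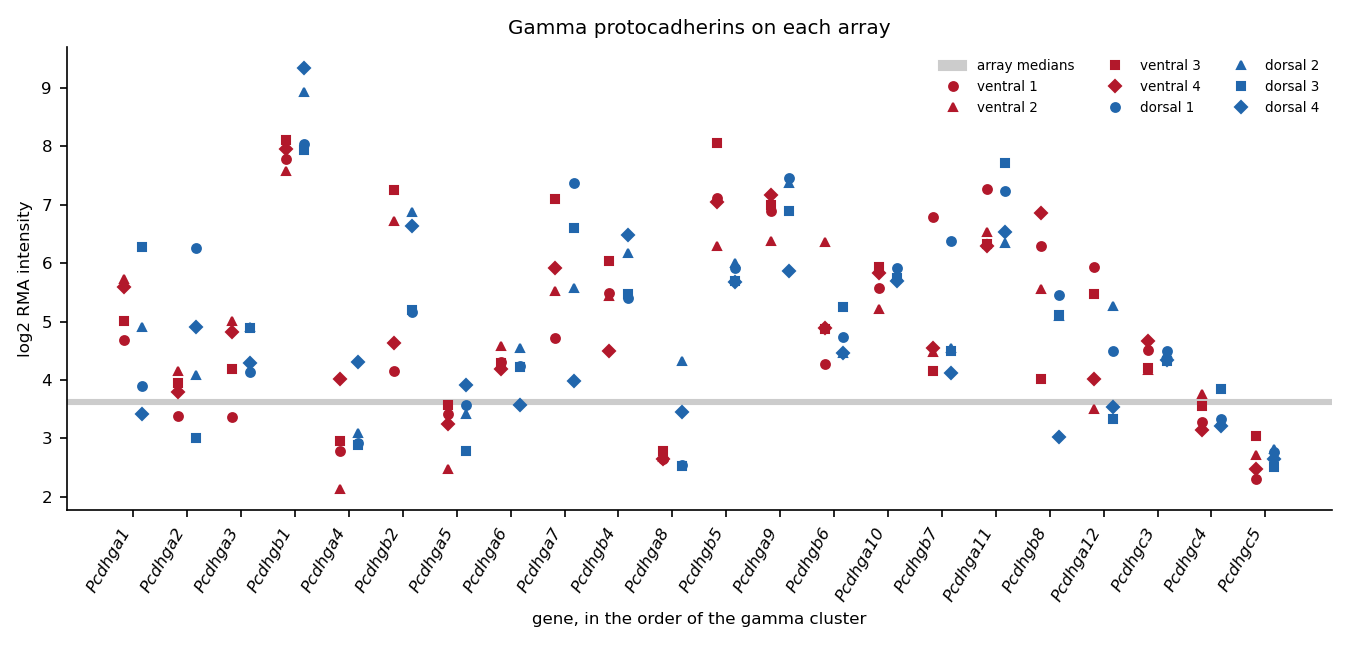
Log2 RMA intensity of all 22 gamma protocadherins on each of the 8 arrays, ventral (red) left of dorsal (blue), in cluster order, with the array medians in grey. Every ventral value of Pcdhgb5 lies above its dorsal values, Pcdhga2, Pcdhga7, Pcdhgb2 and Pcdhgb8 span 3.10 to 3.83 log2 units, and Pcdhgc3 spans 0.50.

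Gamma genes of the A and B types often had a wide residual spread. This measure pools both tissues and leaves out what same-numbered arrays share, so it does not give the spread within each tissue. The residual SD of these genes in the blocked fit had a median of 0.74 over the 16 tested (0.19 to 1.46), against 0.26 over all genes tested. Of the 16, 10 exceeded the 90th percentile of all genes. Among genes with a mean between 4 and 8, the 15 gamma A and B genes had a median of 0.78, and 10 of them exceeded 0.59, the 90th percentile of the 9658 genes in that range, whose median was 0.28. These are descriptions, since the rows belong to 1 cluster and no test was made. Pcdhga7, Pcdhgb2 and Pcdhgb7, chosen after their values were seen, show different forms of spread between arrays. Pcdhga7 had 4.72, 5.53, 7.09 and 5.92 in ventral replicates 1 to 4, against 7.37, 5.57, 6.60 and 3.98 in dorsal replicates 1 to 4. Pcdhgb2 ranged over 3.10 log2 units, from 4.15 to 7.26 in ventral and from 5.16 to 6.88 in dorsal tissue.

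Pcdhgb7 was high on replicate 1 of both tissues, at 6.79 in ventral and 6.38 in dorsal tissue, against 4.16 to 4.54 on the other ventral arrays and 4.12 to 4.55 on the other dorsal arrays. Its residual SD, with the number as a block, was therefore 0.26. Each of the 8 arrays was more than 1 log2 unit above a gene's own mean for 1 to 4 of the 19 A and B rows. Dorsal replicate 4 was more than 1 unit below it for 4 rows, against 0 to 3 rows on the other arrays, and was the lowest array for 7 of the 19. The C type gene Pcdhgc3, the only one of its type tested, varied little (4.39 ± 0.24 ventral, 4.40 ± 0.09 dorsal, SD, n = 4 each, residual SD 0.19), while Pcdhgc4 and Pcdhgc5 exceeded the median on 2 and 0 arrays.

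**Figure D5:**
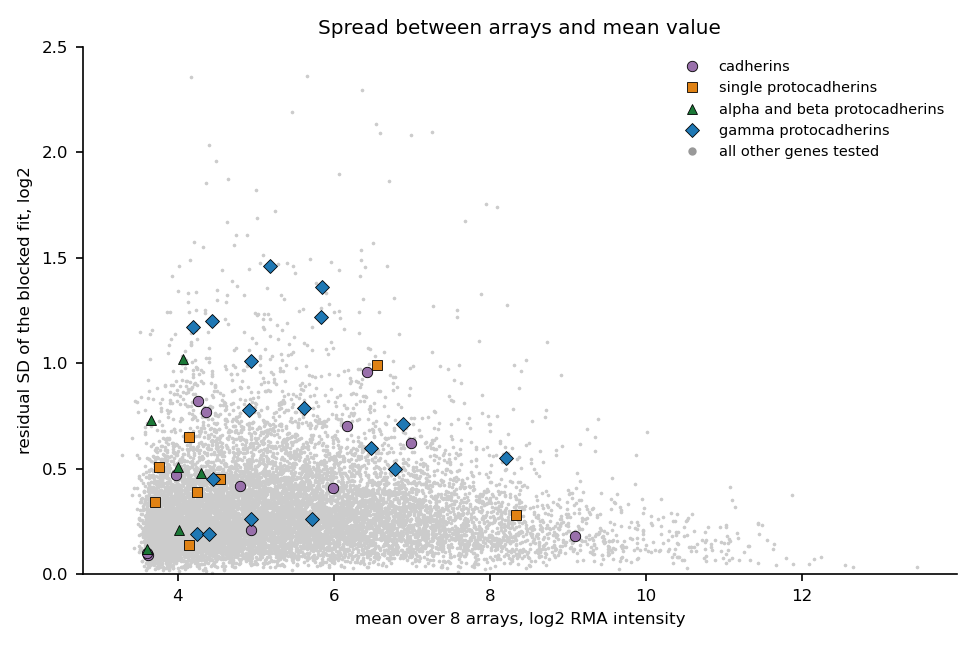
Residual SD of the blocked fit (log2) against the mean over 8 arrays for each gene tested (grey) and for the 43 members by family. Of the 17 gamma protocadherins (blue), 10 lie above the 90th percentile of all genes tested, and Pcdhgb8 and Pcdhga7 lie highest at 1.46 and 1.36.

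In the other families, 5 of 10 classical cadherins, 2 of 8 single protocadherins, 2 of 3 alpha and 0 of 3 beta genes had a residual SD above the 90th percentile of all genes tested. The difference between families was not tested.

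Partners and relatives of the cadherins gave 0 calls too. Among 13 tested genes of 17 catenins and cytoplasmic partners, 6 had a difference above 0 and 7 below, with a median of -0.01. The beta-catenin gene Ctnnb1, whose protein binds cadherin tails, averaged 8.83 ± 0.25 in ventral and 8.94 ± 0.18 in dorsal tissue, and the alpha-catenin gene Ctnna1 7.18 ± 0.08 in ventral and 7.14 ± 0.29 in dorsal tissue (SD, n = 4 each). The p120-catenin gene Ctnnd1 differed by -0.48 (SE 0.42), with ventral replicate 2 at 5.56 and all others at 6.92 to 7.83. Plakoglobin (Jup) was the 1 partner with an unadjusted p under 0.05 (difference 0.54, SE 0.22, limma adjusted p = 0.588). The next smallest p values belonged to the plakophilin gene Pkp3 (difference -0.27, SE 0.15) and the neural delta-catenin gene Ctnnd2 (difference -0.30, SE 0.22). Of 9 desmosomal cadherins 7 lay under the median on all arrays, and the 2 tested, Dsc2 and Dsg1a, differed by 0.15 (SE 0.14) and 0.06 (SE 0.31). Of the 4 nectins, adhesion molecules that act beside cadherins, 3 were tested, with differences of -0.37 for Nectin1, 0.01 for Nectin2 and 0.20 for Nectin3.

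In the wider superfamily 9 of 18 listed genes were tested, 4 above 0 and 5 below, with 3 at an unadjusted p under 0.05. Ret, a receptor tyrosine kinase with cadherin-like domains, had 4.56, 4.46, 4.55 and 4.47 in ventral replicates 1 to 4, against 3.68, 4.01, 3.77 and 3.95 in dorsal replicates 1 to 4. Its ventral arrays all lay above the dorsal ones (difference 0.66, SE 0.16, limma adjusted p = 0.295). The giant cadherins Fat1 and Fat4 had ventral means of 7.19 ± 0.24 and 7.19 ± 0.50, against dorsal means of 7.92 ± 0.34 and 7.89 ± 0.35 (SD, n = 4 each). Both were lower in ventral tissue in 4 of 4 numbers (8.46% of all genes tested), with differences of -0.73 (SE 0.16) and -0.70 (SE 0.22). In limma they had adjusted p values of 0.271 and 0.448. Sclerotome markers were lower on every ventral array, so any gene lower in ventral tissue matches them in direction. Their part was not tested. Genes of proteases that can cut cadherins had a median difference of 0.52, and 5 of 5 tested were above 0, 3 of them at an unadjusted p under 0.05 (8.26% of all genes tested). Macrophage, smooth muscle and mesothelium markers also had median differences above 0 (0.59, 0.63 and 0.84). Of the mesothelium markers tested, 3 were above 0 and 2 below, and the levels of smooth muscle and mesothelium markers overlapped between tissues. The part of these 3 lists in the protease result was not tested. Adam10, which sheds E-cadherin and N-cadherin, had 7.59, 8.50, 8.03 and 8.51 in ventral replicates 1 to 4, against 7.18, 6.90, 7.25 and 7.33 in dorsal replicates 1 to 4, without overlap (difference 0.99, SE 0.21, limma adjusted p = 0.249). Mmp14, a membrane-bound metalloproteinase, differed by 0.84 (SE 0.15, limma adjusted p = 0.207), also without overlap, and Mmp2, which Mmp14 activates, by 0.52 (SE 0.17, limma adjusted p = 0.46). Groups without overlap in either direction made up 4.39% of all genes tested.

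Repressors of the E-cadherin gene had 2 of 5 tested above 0 and 3 below. Twist1 averaged 8.07 ± 0.42 in ventral and 8.58 ± 0.36 in dorsal tissue (SD, n = 4 each), a difference of -0.51 (SE 0.21, limma adjusted p = 0.59), and Snai1 and Snai2 differed by -0.35 (SE 0.20) and -0.18 (SE 0.16). Of 11 genes that regulate the clustered protocadherins, all 11 were tested, 3 above 0 and 8 below, with a median of -0.14. The 3 of these with the smallest p encode subunits of cohesin, which with CTCF brings a cluster's enhancers to a chosen promoter. Their differences were -0.46 (SE 0.17) for Smc1a, -0.28 (SE 0.13) for Smc3 and -0.26 (SE 0.13) for Rad21. Each was below 0 in 4 of 4 numbers, as for 8.46% of all genes tested. Their adjusted p values in limma were 0.524, 0.639 and 0.678. The cohesin genes Stag1 and Stag2, also on that list, are not given singly here.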

How the data were processed

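Gene expression was measured on 8 arrays, 4 of ventral and 4 of dorsal tissue. Per the labels' protocols, picogram amounts of RNA were amplified (Ovation Pico, SPIA) and biotin labelled. The authors deposited log2 values that, per the submitters' processing notes, came from Expression Console with the RMA method, which makes the arrays' distributions alike, so differences are relative to other genes. Versions are not given in the sources used here. Precision is limited by the number of arrays. The table has 25429 rows named by Entrez number. The platform table gave 24675 rows 1 symbol and 754 none, and those 754 were not used. A RefSeq table (GRCm38.p6) gave gene order.

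Values were used as deposited. Genes above the array's median on at least 4 of 8 arrays were tested with limma 3.58.1 in R 4.3.3 (eBayes with trend and robust estimation, replicate number as a fixed block, two-sided, Benjamini-Hochberg over 12416 genes, threshold 0.05), and the fit was tested on simulated data. The block rests on the labels' protocol, by which each embryo gave both tissues. That arrays of the same number share embryos was assumed, and results by replicate number depend on it. Deviations of same-numbered arrays correlated at 0.11, 0.03, 0.02 and 0.12, against -0.13 to 0.10 for other pairs. No slide or scan date was given, so none was fitted.

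The members and gene lists were chosen with earlier results of these data known. Named by rule were all cadherins and single protocadherins tested, 13 cadherins in any case, and of each cluster the 4 with the smallest p and the 3 with the highest mean. Of each other list the rule takes the 3 tested genes with the smallest p, with Ctnnb1, Ctnnd1, Ctnna1 and Jup. The text gives marker lists by their levels and counts, and names few of their genes. Alternatives changed the block, filter, moderation, array weights and centring, or left out arrays.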

Additional observations from a re-analysis of the deposited data

Results flagged for a closer look

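Among 38 named members, Dixon's gap test over 76 groups of 4 arrays marked 4 values. Each is a single array set apart from the other arrays of its tissue, relative to their spread. Chance marks about 1 in 20 groups, which is near the number marked here. Ventral replicate 3 had 3.11 for Cdh15, against 3.39 to 3.41 on the other ventral arrays, all under the array medians. Dorsal replicate 4 held the other 3 values: 3.80 for Cdh26 (3.46 to 3.49 on the other dorsal arrays), 7.87 for Pcdh18 (8.64 to 8.79) and 3.03 for Pcdhgb8 (5.10 to 5.46). That array also had the highest liver and erythroid marker levels of the dorsal arrays (7.80 and 8.47), whose part was not tested.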

How the results depend on the processing

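Under 19 alternatives, 0 members were called, and the smallest adjusted p of a named member was 0.175. Over all genes, 4 were called with no replicate block, 4 with a random replicate block and 10 with a filter at the 75th percentile, against 0 as reported. Leaving out arrays gave 0 to 20 (9 without replicate number 1, and, with no block, 20 without ventral replicate 1, 8 without dorsal replicate 1 and 9 without dorsal replicate 4). Members at an unadjusted p under 0.05 numbered 5 with no replicate block, 7 with a random block, 11 of 90 without a filter and 3 to 7 with arrays left out, against 4. With no replicate block, limma's unadjusted value for Cdh11 was 0.0508, past the threshold that it met in the blocked fit (0.00252) and with a random block (0.0457), while Cdh3 (0.0492) and Cdh10 (0.0371) came under it. With arrays left out, the median difference ranged from 0.25 to 0.55 in classical cadherins, -0.05 to 0.19 in single protocadherins and -0.03 to 0.13 in clustered protocadherins. Of 32 named members tested, 19 kept their direction throughout and 13 changed it in at least 1 setting. With array weights these were Pcdh12 (0.06) and Pcdhb20 (-0.0018). With arrays left out, the 13 ranged as follows: Cdh1 from -0.17 to 0.37, Cdh5 from -0.24 to 0.49, Cdh6 from -0.10 to 0.89, Cdh13 from -0.04 to 0.50, Pcdh9 from -0.18 to 0.19, Pcdh10 from -0.02 to 0.51, Pcdh12 from -0.38 to 0.18, Pcdh17 from -0.22 to 0.21, Pcdha3 from -0.32 to 0.63, Pcdha5 from -0.11 to 0.58, Pcdhb17 from -0.01 to 0.51, Pcdhb20 from -0.12 to 0.13 and Pcdhga9 from -0.48 to 0.28. The cause was not tested. Adjusted p values over the alternatives ran from 0.178 to 0.831 for Cdh11 and from 0.175 to 0.691 for Pcdhgb5, whose differences with a replicate number left out were 0.55 to 0.75 and 0.96 to 1.64. Values near the array medians (3.59 to 3.65) are close to background, which compresses their differences.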
